A study of Mus musculus with 2 samples.

Results

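The 10 genes, Igf1, Gas6, Spp1, Grn, Psap, Vegfa, Hbegf, Osm, Gpnmb and Pdgfb, were followed as trophic and repair factors that macrophages can make. They form a list of names, which no threshold on their levels defined, and make up 10 of the 16819 gene symbols of the expression matrix. Immune cells (CD45+ DAPI-) were sorted from dorsal root ganglia (DRG, the ganglia that hold the cell bodies of sensory neurons) of naive WT mice of the BALB/cAnNRj strain, from pooled cervical, thoracic and lumbar ganglia. Antibodies carrying hashtag oligonucleotides marked the animal of origin, and cells of all mice ran in 1 lane of the 10x 3′ v3 assay, in which each captured mRNA molecule is counted once through a unique molecular identifier (UMI). The expression matrix held the 3 male mice, with 481, 772 and 1415 cells and 23403638 UMIs in all. A larger matrix of 4395 barcodes also held the 3 female mice, with 382, 313 and 378 cells, and 0 counts differed between both matrices for the cells they share. The labels give no age, and all groups share genotype, treatment and lane.

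These products reach neurons, glia and vessels by different routes. IGF1, PDGF-B, VEGF-A and HB-EGF bind receptor tyrosine kinases and are known for survival, growth and proliferation of their target cells, GAS6 bridges phosphatidylserine on dying cells to the receptors AXL, MERTK and TYRO3, and oncostatin M (Osm) signals through gp130. Progranulin (Grn) and prosaposin (Psap) are secreted precursors that also serve the lysosome, osteopontin (Spp1) is a secreted matrix phosphoprotein that binds integrins and CD44, and GPNMB is a transmembrane glycoprotein of phagocytes with stressed lysosomes. After nerve injury several of them are made by macrophages in nerve and ganglion, while the mice here were not injured.

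A macrophage was a cell in which C1qa, C1qb and C1qc together made up at least 0.5% of UMIs. By this rule 1484 cells of the male mice were macrophages, with 183, 519 and 782 in mouse 1, 2 and 3. Only 8 cells lay between 0.4% and 0.5% and 3 between 0.5% and 0.6%. The label held against genes the rule did not use, since Csf1r, Cx3cr1, Mrc1, Cd163, Fcgr1, Adgre1 and Mertk together took 0.364% of UMIs in macrophages, 0.0459% in monocytes and 0.00649% in neutrophils (means of 3 mice). Macrophages were then divided by Fcrls, a gene of resident macrophages and microglia, and Ccr2, the chemokine receptor of monocytes and cells newly derived from them. Cells with at least 1 UMI of Fcrls and none of Ccr2 (Fcrls-only) numbered 678 and made up 45.3% ± 4.81 of macrophages (SD, n = 3 mice), those with Ccr2 and no Fcrls (Ccr2-only) 156 cells or 11% ± 1.95, those with both 583 cells or 38.5% ± 3.43, and those with neither 67 cells or 5.17% ± 1.69. A cell without a UMI of Fcrls or Ccr2 may still carry the mRNA, since the median macrophage held 8621.5 UMIs. The cells below the C1q limit gave 112 monocytes, 80 dendritic cells (DCs), 565 neutrophils, 161 B cells and 118 T or NK cells (T/NK cells) from marker genes, and 148 were left unclassified. Of macrophage UMIs, 0.00442% came from Tubb3 and Snap25 of neurons and 0.00971% from the fibroblast genes Dcn, Lum, Col1a1 and Col1a2.

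Levels are given as CPM, the UMIs of a gene summed over the cells of a class in a mouse, per 1000000 UMIs of that sum. They are compared here between cells and not between genes. Limits drawn from a count of 0 cover counting error only. Differences were tested with edgeR's quasi-likelihood test on these sums, with TMM factors and Benjamini-Hochberg adjustment over all genes tested, and a gene is called when its adjusted p is under 0.05. Folds are log2 with their SE, and intervals are 95% by the normal approximation. The comparisons between cell types share the macrophage sums, and those between macrophage classes share the sums of each class. Between cell types the TMM factors and plain library totals place the middle of all genes differently. With totals the median gene moved from 0.02 to -0.36 against monocytes, from 0.10 to 0.75 against neutrophils, from 0.08 to -0.54 against B cells and from 0.04 to -0.49 against T/NK cells, so folds between types are relative to that choice.

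Of the 10 members, 7 had enough UMIs to be tested between cell types. All 7 differed between macrophages and monocytes, 6 higher in macrophages and 1 lower, where 37.8% of all 5838 genes tested were called (20% higher in macrophages and 17.8% lower). All 7 differed between macrophages and DCs, 5 higher and 2 lower, where 31.3% of all genes were called (15.7% higher and 15.6% lower). Against neutrophils 6 of 7 were called, 5 higher and 1 lower, beside 68.6% of all genes (36.2% higher and 32.4% lower). Against B cells all 7 were higher in macrophages, beside 57.7% of all genes called (32.0% higher and 25.8% lower), though Spp1 lost that call with Louvain clusters as cell types (0.43, adjusted p = 0.142, range 1.36e-08 to 0.142). Against T/NK cells all 7 were higher too, beside 48.7% of all genes (27.3% higher and 21.4% lower). Some of these genes passed the filter through macrophages alone, so the counts describe the members and are no evidence about the set. The same limit holds for the p-values of such genes between cell types.

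Among the gated cell types Igf1 was read almost only in macrophages. Its level was 103, 132 and 105 CPM in mouse 1, 2 and 3, from 1511 UMIs, and 45.8% ± 2.32 of macrophages held at least 1 UMI. Neutrophils gave 5 UMIs, with a UMI in 1.27% ± 0.885 of cells, and DCs and monocytes gave 1 each, and their levels did not overlap those of macrophages in any mouse. B cells and T/NK cells gave 0 UMIs, which sets macrophages at least 28.4-fold and at least 24.4-fold higher when 3 UMIs over the group are taken as the floor. The 148 unclassified cells, however, held 53 UMIs of Igf1, or 35.0 ± 4.51 CPM (SD, n = 3 mice). The fold over neutrophils was 6.0 (SE 0.39, adjusted p = 2.13e-11). Igf1 passed the filter on low counts through macrophages alone, so this p-value is no support beyond the levels.

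Gas6, the bridging ligand, was distributed alike. Macrophages held 347, 344 and 373 CPM, and 79.0% ± 2.09 of them had a UMI, against 3.44% ± 1.5 of neutrophils, at median depths of 8621.5 and 6401 UMIs. Monocytes of male mice gave 0 UMIs, which puts macrophages at least 162-fold higher. In DCs 2 UMIs were read, in B cells 6 and in T/NK cells 2. The 148 unclassified cells held 68 UMIs, or 38.6 ± 24.4 CPM. Gas6 mRNA thus separated macrophages from monocytes in the male mice without overlap, although the 17 monocytes of the female mice held 3 UMIs.

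Pdgfb and Hbegf, ligands of the PDGF and EGF receptor families, also peaked in macrophages among the gated cell types. Pdgfb was at 59.8, 51.6 and 43.6 CPM in macrophages and at 12.6, 34.8 and 12.3 CPM in DCs, the next highest cell type, with every macrophage value above every DC value. The fold over DCs was 1.42 (SE 0.39, adjusted p = 0.00581), and the call was lost without mouse 1 (adjusted p = 0.0617) or mouse 3 (adjusted p = 0.0854), over a range of 4.68e-04 to 0.0854 in all alternatives. Pdgfb passed the filter on low counts through its macrophage values, so these p-values are no support beyond the levels. In neutrophils 2 UMIs of Pdgfb were read and in monocytes 3. Hbegf was at 38.0, 30.7 and 21.2 CPM in macrophages from 349 UMIs, while monocytes held 6 UMIs, DCs 1, neutrophils 2, B cells 1 and T/NK cells 2. Monocytes of mouse 2, at 21.4 CPM, reached the lowest macrophage value, and no other gated cell type overlapped macrophages. The 148 unclassified cells held 23 UMIs, or 16.8 ± 9.36 CPM. In the female mice unclassified cells were at 30.4 ± 11.2 CPM and macrophages at 25.9 ± 8.16 CPM. Hbegf fell below the filter on low counts in the fit of cell types. Without that filter its adjusted p ranged from 1.99e-18 against neutrophils to 3.87e-07 against T/NK cells, and these p-values are no support beyond the levels. Most macrophages had no Hbegf UMI, and the 10% of macrophages with the most held 84.0% ± 3.50 of them.

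Vegfa, the main angiogenic and vessel-permeability factor, showed another order and was low in macrophages of these ganglia. Macrophages held 24 UMIs in 1484 cells, or 0, 0.516 and 2.79 CPM. The 112 monocytes held 55 UMIs, or 37.5, 26.8 and 45.4 CPM, and 28.4% ± 3.03 of monocytes had a UMI against 0.64% ± 0.798 of macrophages, at median depths of 10701.5 and 8621.5 UMIs. Every monocyte value lay above every value of the other 5 cell types. Neutrophils lay between monocytes and macrophages, at 10.9, 10.6 and 6.55 CPM. So did B cells, at 9.16 ± 5.3 CPM (SD, n = 3 mice) from 7 UMIs, a level like that of neutrophils. The 148 unclassified cells held 27 UMIs, or 18.2 ± 7.77 CPM. Vegfa was below the filter on low counts, and without it the fold of macrophages over monocytes was -4.12 (adjusted p = 5.54e-20) and over neutrophils -2.90 (adjusted p = 1.39e-09). Over B cells it was -1.66 (adjusted p = 0.0826). These p-values come from the fit without the filter and are no support beyond the levels. The 17 monocytes of the female mice held 9 UMIs, or 45, 60.5 and 34.2 CPM.

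**Figure D1:**
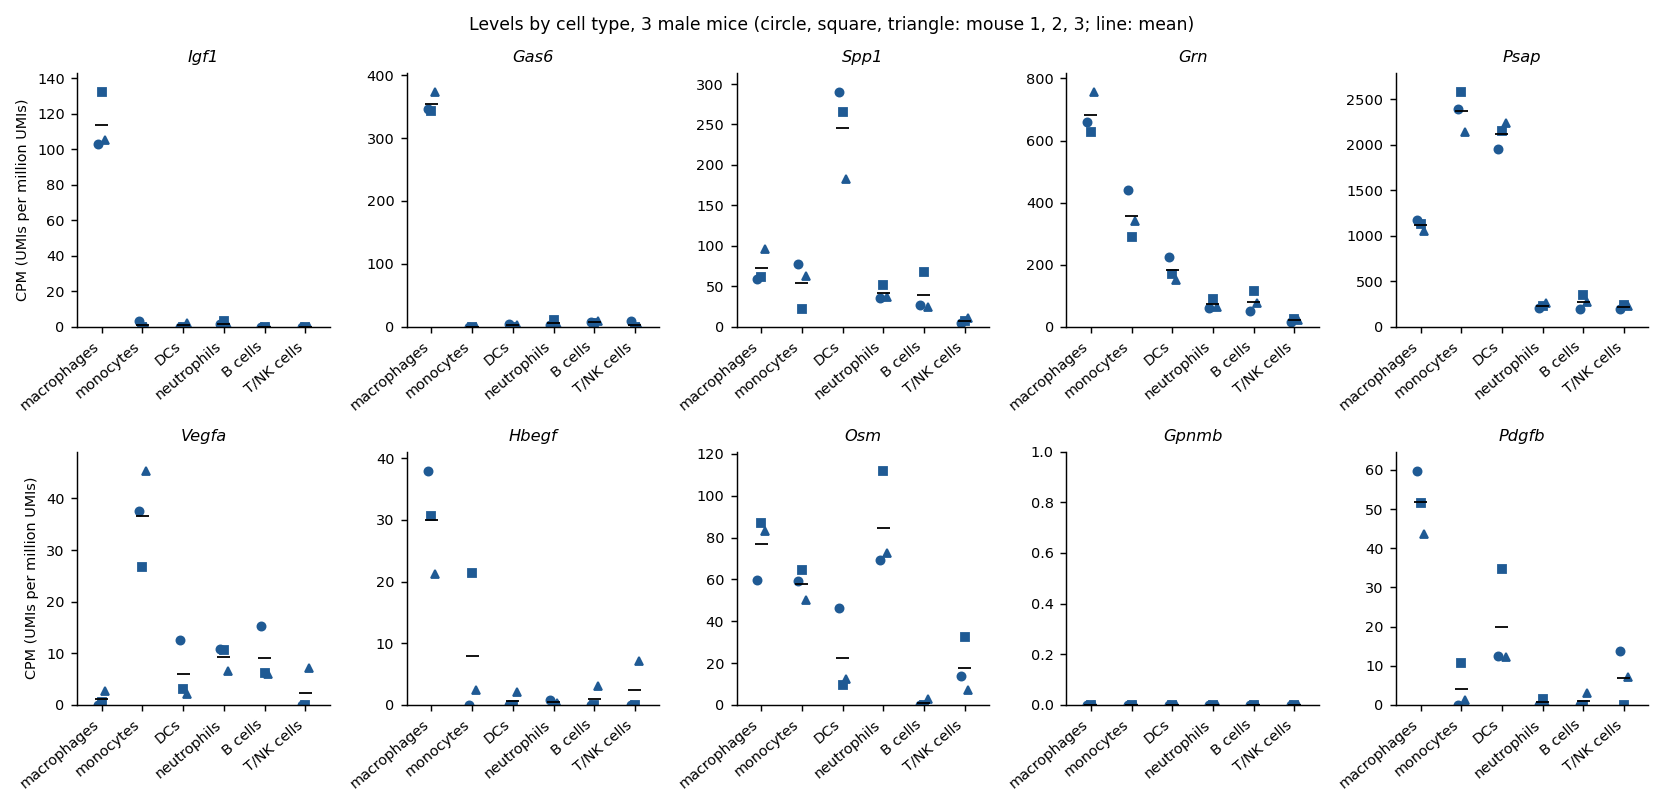
Levels of the 10 genes (CPM, linear axes that differ between panels) in 6 cell types of the 3 male mice, with a symbol per mouse and a line at the mean. Igf1, Gas6, Hbegf and Pdgfb peak in macrophages, Vegfa in monocytes, Spp1 in DCs, Psap in monocytes and DCs, and Gpnmb is at 0 throughout.

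Osm, a cytokine of the interleukin-6 family, was shared by macrophages, neutrophils and monocytes. It stood at 59.8, 87.2 and 83.3 CPM in macrophages, 69.5, 112 and 72.4 CPM in neutrophils and 59.3, 64.3 and 50.1 CPM in monocytes. Macrophages overlapped both of the others, while every neutrophil value lay above every monocyte value. B cells gave 1 UMI, and DCs held 46.2, 9.50 and 12.3 CPM. The fold over neutrophils was -0.68 with TMM factors (SE 0.21, adjusted p = 0.00653) and -0.04 with library totals (adjusted p = 0.891, the highest of a range from 1.45e-07), so a higher level in neutrophils depends on the scaling. Likewise the fold over monocytes, 0.88 (SE 0.27, adjusted p = 0.0115), lost its call with totals (0.49, adjusted p = 0.16), with Louvain clusters as cell types (adjusted p = 0.052) and without mouse 3 (adjusted p = 0.208, the range being 0.00342 to 0.208). The folds over DCs (2.02, SE 0.36, adjusted p = 8.79e-05) and T/NK cells (2.83, SE 0.43, adjusted p = 5.91e-06) were called under every alternative.

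The lysosomal precursors Grn and Psap were read in every cell type, and macrophages stood above monocytes and DCs in Grn but below both in Psap. Grn fell from 661, 626 and 756 CPM in macrophages to 440, 289 and 341 CPM in monocytes and 223, 171 and 149 CPM in DCs, and no values of these groups overlapped. The folds of macrophages were 1.31 over monocytes (SE 0.18, adjusted p = 1.78e-06), 1.98 over DCs (SE 0.19, adjusted p = 1.13e-08) and 2.66 over neutrophils (SE 0.19, adjusted p = 6.40e-12). Psap was instead lower in macrophages, at 1172, 1134 and 1055 CPM, than in monocytes, at 2391, 2587 and 2140 CPM, and DCs, at 1957, 2149 and 2242 CPM. Its folds were -0.69 against monocytes (SE 0.16, adjusted p = 0.00126) and -0.88 against DCs (SE 0.16, adjusted p = 1.29e-04), called under all 12 alternatives. Neutrophils, B cells and T/NK cells held the least Psap, with means of 227, 269 and 220 CPM that overlapped among themselves. A Psap UMI was found in 99.3% ± 0.566 of macrophages, beside 60.8% ± 4.1 of T/NK cells and 62.8% ± 6.29 of B cells, at median depths of 8621.5, 4662.5 and 3386 UMIs.

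Spp1 was highest in DCs of the male mice, and not in macrophages. DCs held 290, 266 and 182 CPM, and macrophages 58.6, 61.9 and 95.4 CPM, without overlap. The fold of macrophages over DCs was -1.68 (SE 0.23, adjusted p = 2.13e-06), called under all 12 alternatives. In the female mice the order was not as clear, since DCs held 31.8, 107 and 134 CPM and macrophages 42.6, 92.8 and 63.5 CPM, which overlap. The male and female DC values did not overlap (246 ± 56.5 and 90.6 ± 52.7 CPM, SD, n = 3 and 3; exact two-sided permutation p = 0.1, the smallest this design allows), a comparison chosen after its values were seen. Neutrophils were at 35.2, 51.3 and 36.5 CPM all below the macrophage values, but the difference did not pass the test with TMM factors (0.27, SE 0.23, adjusted p = 0.317), and did with library totals (0.92, adjusted p = 0.00181, the lowest of a range up to 0.957). Monocytes, at 78.0, 21.4 and 62.1 CPM, overlapped macrophages, and their call (0.70, SE 0.27, adjusted p = 0.045) held under 6 of 12 alternatives and was lost without mouse 2 (adjusted p = 0.119) or mouse 3 (adjusted p = 0.32), the range being 0.00632 to 0.385. B cells held 26.7, 67.4 and 24.3 CPM, which overlapped macrophages, and T/NK cells held 4.60, 6.53 and 10.8 CPM. The 148 unclassified cells held 180 UMIs, or 112 ± 42.2 CPM, beside 72.0 ± 20.4 CPM in macrophages. A UMI of Spp1 was found in 19.7% ± 3.02 of macrophages, 9.58% ± 1.5 of B cells and 3.96% ± 1.51 of T/NK cells, at median depths of 8621.5, 3386 and 4662.5 UMIs. Spp1 in macrophages sat in few cells, and the 10% of cells with the most held 84.4% ± 2.51 of its UMIs, with up to 68 in a single cell.

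Gpnmb was not detected in any gated cell type. In 1484 male macrophages 0 UMIs were read, which allows up to 0.224 CPM, and monocytes, DCs, neutrophils, B cells and T/NK cells also had 0. Its only UMIs lay among unclassified cells, at 0, 6.75 and 2.50 CPM in the male mice and 4.49, 6.11 and 5.89 CPM in the female mice.

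Between Fcrls-only and Ccr2-only macrophages 8 of the 10 members could be tested, and 5 were called, 3 higher in Fcrls-only and 2 higher in Ccr2-only cells. Among all 6443 genes tested 7.37% were called, 3.04% higher in Fcrls-only and 4.33% higher in Ccr2-only cells. With library totals the division of all called genes turned from 196 higher and 279 lower to 275 higher and 195 lower, while the median gene moved from 0.02 to 0.13 and the 5 members kept their directions.

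Igf1 had the largest fold of the members. It stood at 181, 192 and 167 CPM in Fcrls-only cells of mouse 1, 2 and 3 and at 15.9, 14.1 and 21.9 CPM in Ccr2-only cells, from 1051 and 24 UMIs. No values overlapped, and each mouse showed the difference. The fold was 3.16 (SE 0.28, adjusted p = 6.75e-07), called under all 12 alternatives. In Fcrls-only cells 63.9% ± 2.17 had a UMI and in Ccr2-only cells 9.42% ± 3.13, at median depths of 8521.5 and 7999.5 UMIs. After thinning every cell to 2000 UMIs, with the original classes kept, the shares were 30.8% ± 4.09 and 4.45% ± 0.422.

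Gas6 was likewise higher in Fcrls-only cells, with 494, 441 and 498 CPM against 159, 92.8 and 144 CPM. The groups were far apart in each mouse, with a fold of 1.77 (SE 0.18, adjusted p = 2.42e-06) that was called under all 12 alternatives. Ccr2-only macrophages still held far more Gas6 than monocytes, in which no UMI was read. Grn differed less, at 753, 704 and 847 CPM in Fcrls-only and 550, 416 and 526 CPM in Ccr2-only cells. Its fold was 0.52 (SE 0.16, adjusted p = 0.044), and the call did not hold without mouse 1, 2 or 3 (adjusted p = 0.121, 0.269 and 0.0965), with either other C1q limit (0.0537 and 0.0841) or in thinned cells (0.364), the range over 12 alternatives being 0.00318 to 0.364.

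Psap and Spp1 went the other way. Psap was at 1046, 947 and 899 CPM in Fcrls-only cells and 1677, 1775 and 1549 CPM in Ccr2-only cells, a fold of -0.90 (SE 0.14, adjusted p = 2.96e-04). Ccr2-only macrophages thus lay between Fcrls-only macrophages and monocytes in Psap, with no overlap on either side. Spp1 was at 11.7, 37.3 and 38.1 CPM in Fcrls-only cells and 122, 113 and 180 CPM in Ccr2-only cells, a fold of -2.25 (SE 0.35, adjusted p = 3.54e-04). Both calls held under all 12 alternatives. The Spp1 level of Fcrls-only cells overlapped that of B cells. A UMI of Spp1 was found in 40.0% ± 5.77 of Ccr2-only and 11.3% ± 1.96 of Fcrls-only cells, and in 21.6% ± 2.84 and 4.12% ± 1.61 of thinned cells.

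The other members did not pass the test. Hbegf was at 57.0, 36.2 and 24.3 CPM in Fcrls-only cells and 31.7, 22.5 and 17.8 CPM in Ccr2-only cells, higher in the former in 3 of 3 mice but with overlapping groups (0.60, SE 0.41, adjusted p = 0.491). Osm was at 55.5, 117 and 110 CPM and 74.0, 28.1 and 61.7 CPM, with mouse 1 going against the other mice (0.78, SE 0.28, adjusted p = 0.109). With the mouse as a block Osm was called (0.82, adjusted p = 0.0299), and over all alternatives its adjusted p ran from 0.0098 to 0.659. Pdgfb was at 57.0, 43.0 and 42 CPM and 58.2, 56.3 and 63.0 CPM (-0.51, SE 0.27, adjusted p = 0.323), the highest Fcrls-only value lying above the lowest Ccr2-only value. Vegfa, with 12 and 5 UMIs, and Gpnmb, with 0, were too low to test.

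Beside these differences, a list of immediate early and heat shock genes, which also rise when tissue is dissociated, was unequal between the classes. Hspa1a and Hspa1b were its heat shock genes and were not called. The 13 listed genes took 1.95% ± 0.535 of UMIs in Fcrls-only and 1.29% ± 0.108 in Ccr2-only macrophages of the male mice, and 2.06% ± 0.135 and 1.20% ± 0.32 in the female mice. Of them 5 were called higher in Fcrls-only cells of the male mice (Fos, Fosb, Jun, Atf3 and Rhob) and 0 lower, with a median fold of 0.46 against 0.02 for all genes. Of all genes 3.04% were called higher and 4.33% lower. In the female mice 7 of the 13 were called higher and 0 lower, beside 2.18% and 1.83% of all genes. There the calls of Fos, Jun, Atf3 and Rhob held under every alternative, and that of Fosb was lost under 2. In the male mice the calls of Atf3, Jun and Rhob were lost without mouse 1 (adjusted p = 0.103, 0.152 and 0.0573) and without mouse 2 (0.164, 0.0793 and 0.149). Those of Jun and Rhob were also lost with DESeq2 (0.0523 and 0.0546). Neutrophil genes took 0.181% ± 0.145 and 0.0908% ± 0.00629 of UMIs in both classes. Their part in the members' differences was not tested.

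**Figure D2:**
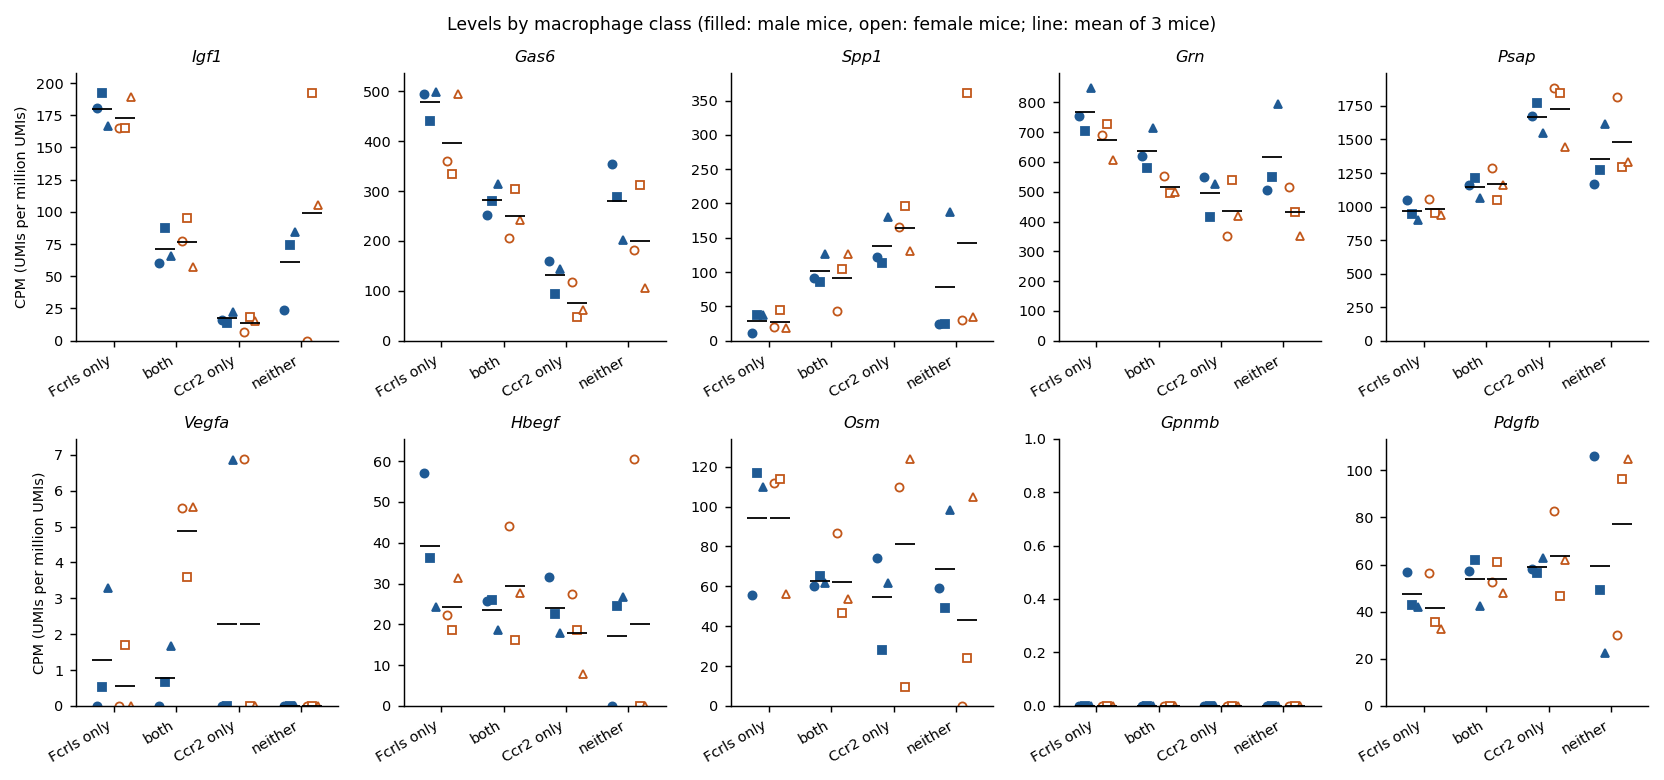
Levels of the 10 genes (CPM, linear axes that differ between panels) in 4 macrophage classes, with filled symbols for male mice, open symbols for female mice and a line at the mean of 3 mice. Igf1 and Gas6 step down from Fcrls-only over double-positive to Ccr2-only cells in both sexes, Spp1 and Psap step up, and Hbegf, Osm and Pdgfb overlap.

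On average, macrophages with both Fcrls and Ccr2 held intermediate levels of the members that differed, but only Igf1 and Gas6 were called against both other classes. Igf1 was at 60.2, 87.2 and 65.8 CPM, lower than in Fcrls-only cells (-1.28, SE 0.17, adjusted p = 4.22e-04) and higher than in Ccr2-only cells (1.89, SE 0.30, adjusted p = 0.00449). Gas6 was at 252, 281 and 314 CPM, also apart from both (-0.70, SE 0.15, adjusted p = 0.0225, and 1.07, SE 0.18, adjusted p = 0.00542). Spp1, at 91.7, 85.1 and 126 CPM, was higher than in Fcrls-only cells (1.70, SE 0.32, adjusted p = 0.00755) and overlapped the Ccr2-only values (-0.54, SE 0.32, adjusted p = 0.693). Grn, at a mean of 638 CPM, overlapped the Fcrls-only values (-0.21, SE 0.15, adjusted p = 0.752). It lay above the Ccr2-only values without a call (0.31, SE 0.16, adjusted p = 0.595). Against Fcrls-only cells 3 of 8 members were called, 1 higher and 2 lower, where 0.9% of all genes were called (0.45% in each direction). Against Ccr2-only cells 2 of 8 were called, both higher, where 0.466% of all genes were (0.264% higher and 0.202% lower).

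Some of these intermediate calls were lost without single mice, in thinned cells or with DESeq2. With DESeq2 the fold of Spp1 over Fcrls-only cells was not called (1.83, adjusted p = 0.246). The test in cells thinned to 2000 UMIs also drew the classes anew from the thinned counts. There none of the 4 calls of Gas6 and Spp1 over Fcrls-only and of Igf1 and Gas6 over Ccr2-only cells held (adjusted p = 0.396, 0.835, 0.572 and 0.321). The thinned folds were -0.6, 0.65, 0.95 and 0.64. Without mouse 2 the folds over Ccr2-only cells were not called for Igf1 (1.57, adjusted p = 0.0934, range 2.35e-08 to 0.572) and Gas6 (0.88, adjusted p = 0.149, range 1.51e-07 to 0.321). Without mouse 1 those over Fcrls-only cells were not called for Gas6 (-0.60, adjusted p = 0.436, the highest of a range from 7.84e-04) and Spp1 (1.56, adjusted p = 0.135, range 5.65e-17 to 0.835), nor without mouse 2 for Gas6 (-0.74, adjusted p = 0.107). Psap in double-positive cells stood at 1158, 1213 and 1065 CPM, between both other classes without overlap. Its folds were 0.30 over Fcrls-only cells (SE 0.14, adjusted p = 0.465) and -0.60 over Ccr2-only cells (SE 0.14, adjusted p = 0.0606). With the mouse as a block the fold over Ccr2-only cells was called (adjusted p = 0.00866, the lowest of a range up to 0.503). The 67 cells with neither gene varied between mice, Igf1 being at 23.6, 73.9 and 84.7 CPM and Spp1 at 23.6, 24.6 and 187 CPM.

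Levels followed the number of Fcrls UMIs in a cell and not merely its presence. Macrophages without a Fcrls UMI held 28.1 ± 9.28 CPM of Igf1 (SD, n = 3 mice), those with 1 to 3 held 53.6 ± 20.3, with 4 to 7 112 ± 22.5, with 8 to 15 179 ± 30.8 and with 16 or more 211 ± 84.6. The last step was not shared by the mice, as mouse 3 held 150 and 139 CPM in the last bins and mouse 2 211 and 304 CPM. Gas6 rose over the same bins from 173 ± 40.6 to 568 ± 47.9 CPM, with each bin above the previous one in each mouse. Psap went down from 1577 ± 65.0 to 833 ± 99.2 CPM, with each bin below the previous one in each mouse. Spp1 had no such order, since the highest bin, at 103, 32.0 and 99.5 CPM, was above the bin of 8 to 15 UMIs in mouse 1 and 3.

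Ccr2 UMIs gave the opposite picture. Igf1 was at 170 ± 12.9 CPM in macrophages without a Ccr2 UMI and 39.8 ± 6.78 CPM in those with 4 or more, and Gas6 at 463 ± 27.2 and 220 ± 45.7 CPM. Spp1 was at 13, 36.5 and 47.5 CPM without a Ccr2 UMI and at 147, 97.2 and 195 CPM with 4 or more. Depth differed between the bins, the median being 7813 UMIs in macrophages without Fcrls and 12394 with 16 or more, and 8420 and 9313 in the lowest and highest bins of Ccr2. The bins are a description, as the cells of a mouse are not replicates.

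**Figure D3:**
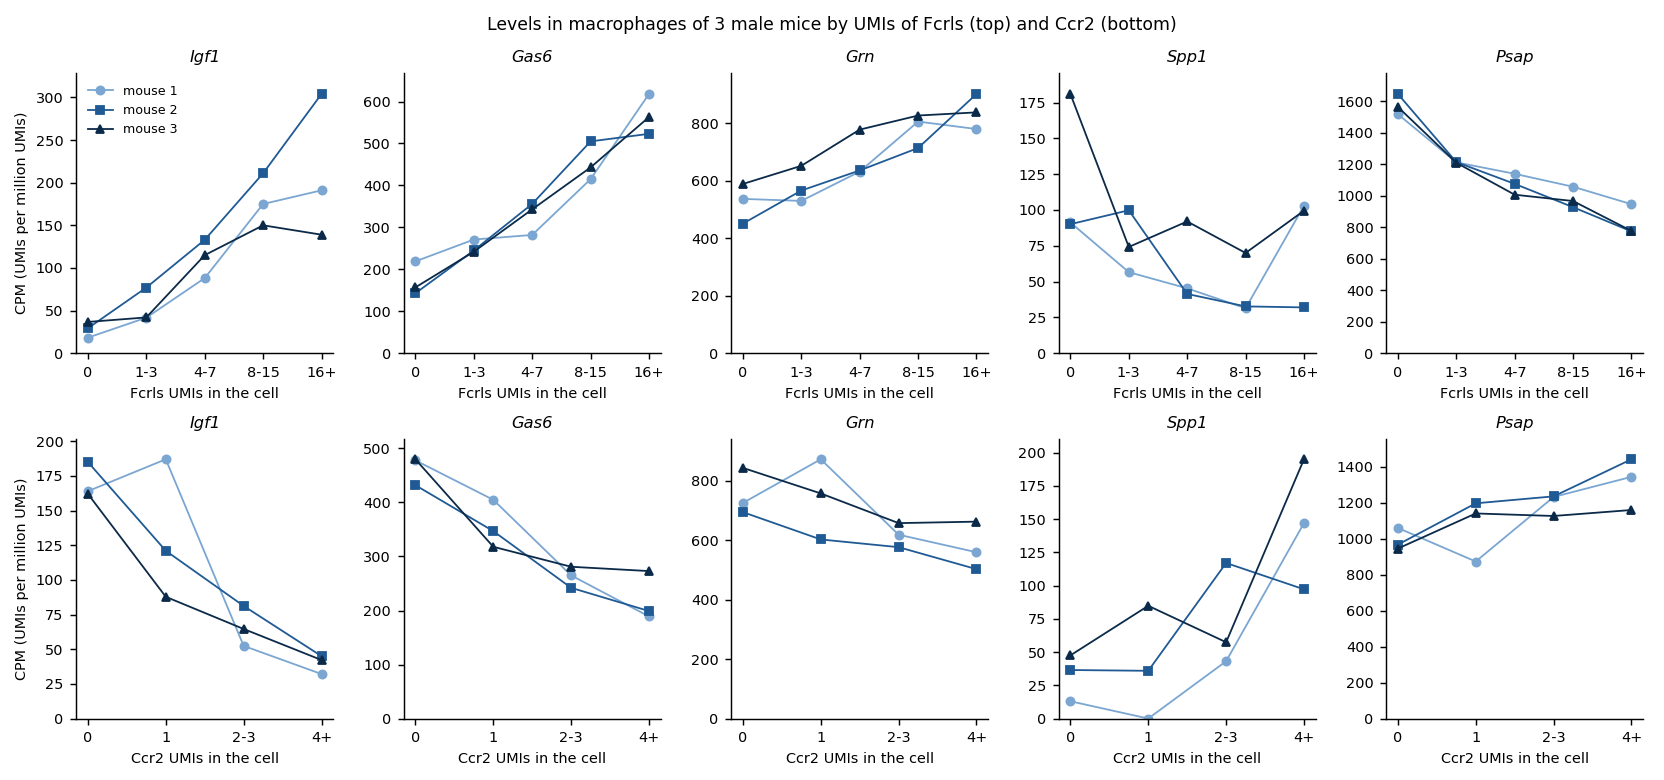
Levels (CPM) of 5 genes in macrophages of the 3 male mice, grouped by the UMIs of Fcrls (top) or Ccr2 (bottom) in the cell, with a line per mouse. On average Igf1, Gas6 and Grn rise with Fcrls and fall with Ccr2, Psap falls with Fcrls and rises with Ccr2, and Spp1 is highest in cells with 4 or more Ccr2 UMIs in 2 of 3 mice.

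The female mice, which did not enter these fits, gave the same 5 calls with the same directions. Igf1 was at 165, 165 and 189 CPM in Fcrls-only and 6.89, 18.6 and 15.5 CPM in Ccr2-only macrophages (3.70, SE 0.48, adjusted p = 2.98e-06), and Gas6 at 361, 334 and 495 CPM and 117, 46.6 and 61.8 CPM (2.35, SE 0.28, adjusted p = 5.94e-07). Spp1 was at 19.7, 44.1 and 18.4 CPM and 165, 196 and 131 CPM (-2.63, SE 0.42, adjusted p = 6.73e-05), and Psap at 1056, 950 and 935 CPM and 1887, 1846 and 1446 CPM (-0.81, SE 0.15, adjusted p = 5.07e-04). None of these groups overlapped, although only 55 Ccr2-only cells were found in the female mice. Igf1 gave 397 UMIs in Fcrls-only and 5 in Ccr2-only cells. It passed the filter on low counts through the other classes, so its p-value is no support beyond the levels. Grn was called (0.65, SE 0.16, adjusted p = 0.0149) but not without mouse 1 (adjusted p = 0.172) or mouse 3 (adjusted p = 0.103), over a range of 0.00172 to 0.172. Among all 6788 genes tested 4.01% were called, 2.18% higher in Fcrls-only and 1.83% higher in Ccr2-only cells.

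Pdgfb was higher in Ccr2-only cells in 3 of 3 male and 3 of 3 female mice, yet it passed the test in neither sex (adjusted p = 0.323 and 0.457). Osm, at 112, 114 and 56.3 CPM and 110, 9.32 and 124 CPM in female mice, showed no common direction.

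No member was called between macrophages of male and female mice (0 of 8 called by edgeR, 1 at an unadjusted p under 0.05, and 0 under any alternative), beside 0.0863% of all 8114 genes tested (0.037% higher in male and 0.0493% higher in female mice). The largest difference was in Grn, at 661, 626 and 756 CPM in male and 597, 602 and 551 CPM in female mice (0.21, SE 0.10, 95% interval 0.02 to 0.40, adjusted p = 0.87). For Igf1 the interval was -0.35 to 0.15, for Gas6 -0.04 to 0.39, for Spp1 -0.26 to 0.59, for Psap -0.22 to 0.17, for Osm -0.36 to 0.33 and for Pdgfb -0.31 to 0.34. The effect of Fcrls-only against Ccr2-only cells did not pass a test of its difference between sexes for any member (0 of 6301 genes called by edgeR, 264 at an unadjusted p under 0.05, and 1 by DESeq2). That difference was -0.53 (SE 0.59) for Igf1, -0.55 (SE 0.36) for Gas6, 0.43 (SE 0.45) for Spp1 and -0.06 (SE 0.19) for Psap. The intervals of these differences ran from -1.67 to 0.62 for Igf1 and from -1.27 to 0.16 for Gas6, wider than that of Psap, from -0.43 to 0.32.

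**Figure D4:**
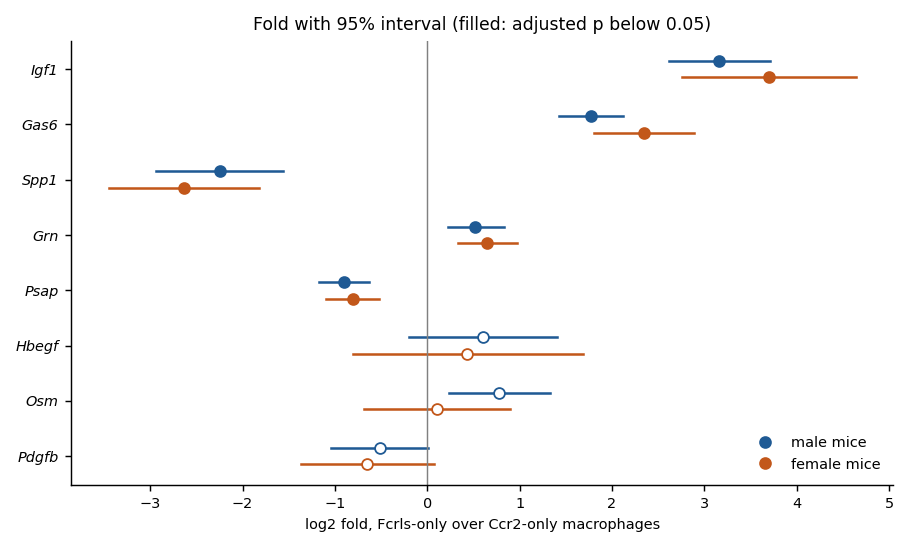
Log2 fold of Fcrls-only over Ccr2-only macrophages (x axis) for the 8 genes tested, with 95% intervals, in 3 male (blue) and 3 female (orange) mice, filled where the adjusted p is under 0.05. Igf1, Gas6 and Grn lie to the right and Spp1 and Psap to the left in both sexes, and the intervals of Hbegf and Pdgfb cross 0.

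The sequence before the start of transcription is shown for 3 genes that were called under every alternative, Gas6 on the Fcrls side and Spp1 and Psap on the Ccr2 side. RefSeq windows (GRCm38.p6) matched 7 of the 10 members. The 250 bases before the start were searched on both strands for TGANTCA (the AP-1 site bound by Fos and Jun proteins), TGCTGA (the half-site of MAF factors) and CACGTG (an E-box), and capitals mark a match.
Gas6, chr8:13494536-13494785, minus strand: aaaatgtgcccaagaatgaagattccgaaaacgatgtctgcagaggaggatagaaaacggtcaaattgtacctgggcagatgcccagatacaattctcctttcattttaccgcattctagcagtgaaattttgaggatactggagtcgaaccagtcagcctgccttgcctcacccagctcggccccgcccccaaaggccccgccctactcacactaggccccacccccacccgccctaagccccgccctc
Spp1, chr5:104434861-104435110, plus strand: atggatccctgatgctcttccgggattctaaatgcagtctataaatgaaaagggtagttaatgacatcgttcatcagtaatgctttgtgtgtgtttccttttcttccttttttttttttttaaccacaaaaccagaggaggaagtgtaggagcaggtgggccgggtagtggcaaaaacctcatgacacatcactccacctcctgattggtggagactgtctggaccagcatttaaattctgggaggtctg
Psap, chr10:60277378-60277627, plus strand: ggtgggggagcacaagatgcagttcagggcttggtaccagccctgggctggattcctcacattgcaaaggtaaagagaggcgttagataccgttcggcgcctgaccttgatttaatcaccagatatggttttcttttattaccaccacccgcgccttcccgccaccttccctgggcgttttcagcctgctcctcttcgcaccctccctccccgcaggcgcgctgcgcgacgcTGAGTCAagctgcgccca
TGANTCA was found in Psap, 18 bases before the start, and in Igf1, 37 bases before the RefSeq start, where the window lies in an exon of other Igf1 transcripts and is not printed. It is present in 6.85% of the windows of 27025 genes. TGCTGA, present in 15.8%, and CACGTG, present in 6.04%, were in none of the 7 members. Psap and Igf1 were thus the members with a match, and they differed in opposite directions between the macrophage classes.

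The genes lie apart in the genome (GENCODE M21, GRCm38). Psap (chr10:60277627-60302597, plus strand) and Igf1 (chr10:87858265-87937042, plus strand) share chromosome 10, and Osm (chr11:4236420-4241026) and Grn (chr11:102430315-102437048) chromosome 11. Gas6 is at chr8:13465374-13494490 and Spp1 at chr5:104435118-104441050.

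Within DCs and neutrophils the members varied with the subset. Of the 80 DCs, 33 held a UMI of Xcr1 or Clec9a (genes of type 1 DCs) and none of Cd209a, and 35 held Cd209a (a gene of type 2 DCs) and none of the others. Psap was higher in the former in each mouse, at 3113, 2285 and 2861 CPM against 1618, 2037 and 1325 CPM. The exact two-sided permutation within mice gave p = 0.25, the smallest that 3 pairs allow, for a comparison chosen after its values were seen. Spp1 was read in both subsets, at 235, 286 and 143 CPM and 401, 332 and 242 CPM, higher in the Cd209a cells in each mouse with overlapping groups. Pdgfb in DCs came mainly from the cells with Xcr1 or Clec9a, with 16 UMIs against 2, or 39.2, 86.5 and 15.9 CPM against 0, 0 and 10.3 CPM. The values of the cells with Xcr1 or Clec9a spanned the macrophage level of Pdgfb, 51.6 ± 8.11 CPM (SD, n = 3 mice). As few as 3 cells of the first subset came from a single mouse.

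In neutrophils Osm followed the late genes Asprv1, Acod1, Cxcr2 and Csf3r. The 235 neutrophils in which these made up at least 0.1% of UMIs held 277, 356 and 157 CPM of Osm, and the 330 others 28.1, 52.4 and 52.7 CPM, without overlap. The exact two-sided permutation within mice gave p = 0.25, the smallest that 3 pairs allow, for a comparison chosen after its values were seen. In CPM the late cells of every mouse thus lay above the macrophage values of 59.8 to 87.2 CPM. CPM is a share of all UMIs of the cells, and the depth of the neutrophil subsets was not compared. Counted per cell the gaps were smaller, with 187 Osm UMIs in the 235 late cells, 180 in the 330 others and 1093 in 1484 macrophages. Vegfa was at 30.2, 30.9 and 10.9 CPM in late neutrophils and 7.03, 5.62 and 5.53 CPM in the others, from 16 and 23 UMIs. In CPM, late neutrophils of mouse 1 and 2 thereby reached the range of Vegfa in monocytes, 26.8 to 45.4 CPM, on few UMIs. Counted per cell they did not, as the 16 UMIs came from 235 late cells and the 23 from 330 others, beside 55 in 112 monocytes.

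**Figure D5:**
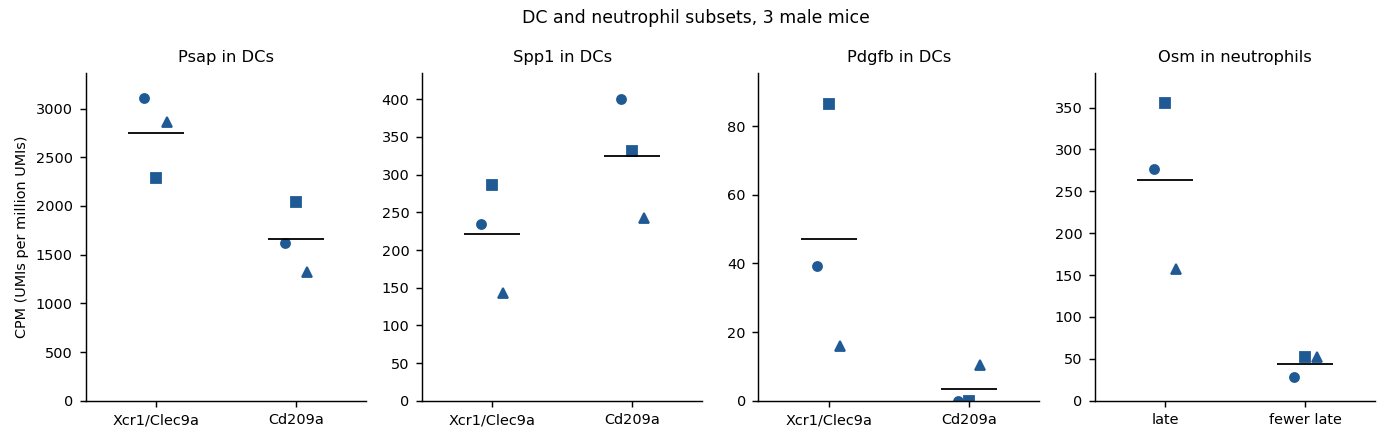
Levels (CPM, axes from 0) of Psap, Spp1 and Pdgfb in DCs with Xcr1 or Clec9a and in DCs with Cd209a, and of Osm in neutrophils with late genes at 0.1% of UMIs or more and in the others, for the 3 male mice with a line at the mean. Psap and Osm do not overlap between the subsets.

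Other genes of these pathways were read from lists. Of 54 further trophic factors, 12 could be tested between Fcrls-only and Ccr2-only macrophages in the male mice, 3 were higher in Fcrls-only cells and 0 in Ccr2-only cells, with a median fold of -0.20 against 0.02 for all genes, of which 7.37% were called (3.04% higher and 4.33% lower). Il10, an anti-inflammatory cytokine, was at 137 ± 23.4 and 10.5 ± 8.72 CPM (3.18, SE 0.34, adjusted p = 5.14e-06), and lost its call only in thinned cells (adjusted p = 0.153, the highest over the alternatives). It was not among the calls of the female mice, where its fold was smaller (0.86, SE 0.5, adjusted p = 0.474). Apoe, a lipid carrier, was also higher in Fcrls-only cells of both sexes (0.40, SE 0.09, and 0.56, SE 0.15), as was Bmp2, a morphogen of the TGF-beta family (1.62, SE 0.48, and 2.02, SE 0.35). Without mouse 1 or mouse 2 neither was called in the male mice (adjusted p = 0.0608 and 0.183 for Apoe, 0.12 and 0.103 for Bmp2). Apoe was also lost with a C1q limit of 1% (0.0968), and Bmp2 with DESeq2 (0.307), both other C1q limits (0.0645 and 0.0612) and a class limit of 2 UMIs (0.0534). In the female mice the call of Apoe was lost under 4 alternatives (up to adjusted p = 0.389) and that of Bmp2 under none.

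Among 24 modulators of the members' products, 12 were tested, 3 were higher and 1 lower in Fcrls-only cells, with a median fold of 0.27, beside the same 7.37% of all genes. Igfbp4, which binds IGFs and limits their access to the receptor, had the pattern of Igf1, at 641 ± 68.4 CPM in Fcrls-only and 167 ± 7.86 CPM in Ccr2-only cells (1.84, SE 0.17, adjusted p = 9.61e-07, and 2.13, SE 0.22, adjusted p = 3.60e-08 in female mice). The lysosomal proteases Ctsb and Ctsl were higher in Fcrls-only cells in both sexes (0.78, SE 0.13, and 0.48, SE 0.13, in male mice), and Furin, a proprotein convertase, was lower in the male mice (-0.75, SE 0.22, adjusted p = 0.0389). Of these, Furin lost its call under 9 alternatives (up to adjusted p = 0.843) and Ctsl under 5 (up to 0.213), each of them without any 1 of the mice. Of 32 receptors 16 were tested, with 1 higher and 2 lower and a median fold of 0.03, again beside 7.37% of all genes. Cd44, a receptor of osteopontin, was higher in Ccr2-only cells (-1.31, SE 0.28, adjusted p = 0.00535), the class with more Spp1. Axl, a receptor of GAS6, was also higher there (-0.63, SE 0.17, adjusted p = 0.0251), in the class with less Gas6, while Sdc4, a heparan sulfate proteoglycan of the cell surface, was higher in Fcrls-only cells (1.11, SE 0.14, adjusted p = 3.43e-05). Without single mice Cd44 was not called when mouse 1 or 2 was left out (adjusted p = 0.0572 and 0.0567), nor Axl without mouse 1 or 3 (0.286 and 0.268). Axl was also lost with library totals (-0.52, adjusted p = 0.0744) and in thinned cells (-0.26, adjusted p = 0.67). Neither was called in the female mice, and neither passed the test of a difference between sexes.

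The genes most like each member across 27 sums (4 macrophage classes and 5 other cell types in 3 mice) were ranked by Pearson's r of log2(CPM + 10) among 5173 genes with at least 20 CPM on average. The points share a lane and mice, and r mostly reflects cell type. Igf1 was most like Slc15a2 (r = 0.963), Gas6 like Ltc4s (r = 0.989) and Grn like Asah1 (r = 0.965), the gene of lysosomal acid ceramidase. Psap was most like Ppfia4 (r = 0.969), Pdgfb like Rtn4 (r = 0.939) and Osm like Cebpb (r = 0.889). Spp1 had the weakest match, with Tnip3 (r = 0.802).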

How the data were processed

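Per the labels and methods, the authors aligned reads to mm10 with Cell Ranger (version 3.1.0 per the file headers) and deposited raw UMI counts, unnormalized. The male matrix equals the cells of the larger matrix left by HTODemux and the stated filters (over 200 and under 5000 genes, under 5% mitochondrial UMIs). The same steps gave the 1073 cells of female mice here. Scrublet marked 10 cells (0.267%) as doublets, too few to rely on. They were kept, and removal was an alternative.

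Cells were classed by shares of UMIs of C1q and other marker genes, none a member. Counts were summed per mouse and class and tested with edgeR 4.0.16 (filterByExpr, TMM, quasi-likelihood) in R 4.3.3, with DESeq2 1.42.0, Seurat 5.3.0 clusters, library totals, no filter, other C1q limits, thinning to 2000 UMIs, left-out mice and the mouse as a block as alternatives. Scripts were tested on simulated data. Python 3.11.15 and SciPy 1.17.1 gave the levels and exact tests. Mice were numbered within a sex by hashtag, and since each mouse gave every class, classes pair by animal. Deviations of sums of the same male mouse correlated at 0.0495, 0.0927 and 0.1831 over macrophage classes.

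Total UMIs per male mouse ran from 4239463 to 13508078, with a median of 8283.5 per cell. All 10 members are named, and of each list up to 4 genes per direction with the largest fold among those called between Fcrls-only and Ccr2-only macrophages of the male mice. Atf3 was added after its value was seen. Xist and Y-linked genes matched the labelled sex in all 6 mice. Members and lists were chosen with earlier results of these data known. Separate animals ran in 1 lane, so lane effects cannot be told apart from the experiment.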

Additional observations from a re-analysis of the deposited data

How the results depend on the processing

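Of 994 values of single members under alternative settings, 955 kept their side of the threshold, 8 gained and 31 lost a call. Values with a call in the main or the alternative setting reversed their direction in 0 cases. Changes of direction among values called in neither setting were not counted. Thinning every cell to 2000 UMIs left 170 genes called between Fcrls-only and Ccr2-only macrophages, 1 member and 4 genes between double-positive and Fcrls-only cells, and 0 members and 11 genes between double-positive and Ccr2-only cells. Against monocytes, DCs, neutrophils, B cells and T/NK cells it left 757, 594, 1630, 1399 and 1185 genes, and macrophage levels became 335 CPM for Gas6 and 1210 CPM for Psap. Thinning uses fewer counts by construction, and fewer genes passed the filter. Genes tested fell from 6443 to 2674 between macrophage classes and from 5838 to 2315 between cell types. Members tested fell from 8 to 7 and from 7 to 6, so these counts cannot be compared as shares. Its tests also drew the cell classes anew from the thinned counts, while shares and levels of thinned cells kept the original classes. DESeq2 called 88 genes between double-positive and Fcrls-only cells and 1 for the difference between sexes. Without the filter on low counts 182, 136 and 6858 genes were called between double-positive and Fcrls-only cells, between double-positive and Ccr2-only cells and against neutrophils, 104 between the sexes and 24 for the difference between sexes, with more genes tested. A C1q limit of 1% gave 1 gene for that difference, and Ccr2-only macrophages alone gave 3 between the sexes. The cause was not tested for the other settings.

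With the mouse as a replicate block 249 genes were called between double-positive and Fcrls-only cells, 118 between double-positive and Ccr2-only cells and 2 for the difference between sexes. Among the members the block added Osm between Fcrls-only and Ccr2-only and between double-positive and Fcrls-only cells (adjusted p = 0.0299 and 0.0251) and Psap between double-positive and Ccr2-only cells (adjusted p = 0.00866), and changed no other call.

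With 1 mouse left out, members called and genes called were 4 and 194 to 279 between Fcrls-only and Ccr2-only cells, 1 to 3 and 15 to 47 between double-positive and Fcrls-only cells, and 0 to 2 and 14 to 18 between double-positive and Ccr2-only cells. They were 5 to 8 and 1449 to 2043 against monocytes, 6 to 7 and 1217 to 1739 against DCs, 6 to 7 and 3190 to 4179 against neutrophils, 7 and 2620 to 3259 against B cells, and 7 and 2337 to 2689 against T/NK cells. In female mice they were 4 to 5 and 144 to 191, between the sexes 0 and 5 to 66, and for the difference between sexes 0 and 0 to 2. The genes tested changed with the mouse left out. They were 5716 to 7699 between macrophage classes of male mice, 5563 to 6823 between cell types and 4695 to 7366 in female mice. Members tested were 8 between macrophage classes and 7 or 8 between cell types, so these counts are not shares. In macrophages Vegfa rests on 24 UMIs and a count of 0 allows up to 0.224 CPM of Gpnmb.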
